A study of Mus musculus with 34 samples.

Results

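The regions described here were the distal STAT5 sites that carried H3K27ac in unstimulated WT BMDCs and had no overlapping p65 peak in WT BMDCs after LPS. They were selected on WT STAT5, WT H3K27ac and WTLPS p65 peaks: a WT STAT5 peak was taken when it shared no base with a WTLPS p65 peak, lay outside all annotated promoters (2.5 kb to either side of a gene's start) and shared at least 1 bp with a WT H3K27ac peak. Of 8185 WT STAT5 peaks, 1477 had a WTLPS p65 peak, 1248 of the others lay at a promoter and 5460 were distal. H3K27ac covered part of 2700 of these distal peaks, which made up 33.0% of all WT STAT5 peaks and are called acetylated distal STAT5 sites. The other 2760 distal peaks had no WT H3K27ac peak.

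The cells were bone marrow-derived dendritic cells (BMDCs) of C57BL/6 mice, given as 8 weeks old, grown for 6 days with GM-CSF. WT cells had the genotype CreER, a Cre recombinase that works only with tamoxifen, and KO cells the genotype CreER;CTCF fl/fl, in which Cre can remove Ctcf. Both genotypes thus carry CreER, 4-OH tamoxifen was given when the cultures were started, and the Rosa26 locus that drives CreER is active in nearly all cells, so that deletion was not limited to dendritic cells. Cells were left unstimulated (WT, KO) or received LPS at 100 ng/ml for 3 h (WTLPS, KOLPS), while STAT5 was mapped in WT and KO cells after GM-CSF had been given again for 15 min. STAT5 and H3K27ac were therefore not measured in identically treated cells. For each antibody and condition a single ChIP-seq peak list was deposited, so that differences compare lists, with no replicate check. The intervals below are 95% intervals over sites, they cover counting error only and were not adjusted for the 79 differences computed, and a difference between classes of sites is called where its interval leaves out 0. Differences between conditions rest on 1 list each, so they are given with their interval over sites and no call is made from it.

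GM-CSF binds a receptor whose chains hold the kinase JAK2. JAK2 phosphorylates STAT5, and STAT5 dimers then enter the nucleus and bind a palindrome of TTC and GAA in DNA. In myeloid cells STAT5 drives survival and growth genes as well as its own inhibitors of the CIS and SOCS families. H3K27ac is laid down by the acetyltransferases p300 and CBP at active enhancers and promoters, H3K4me1 marks enhancers more broadly, SMC1 is a core subunit of the cohesin ring that extrudes DNA loops, and CTCF halts cohesin at loop anchors.

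The DNA under the summits shows the first feature that the selection did not use. The motif TTCNNNGAA, which reads the same on both strands, was searched within 50 bp of each WT STAT5 summit. 10 windows of mm10 are printed to show its 3 states, several copies, a single copy and none, at named genes. They belong to the strongest STAT5 site near each of 5 genes known as STAT5 targets and to 5 of the 10 sites with the highest −log10 q, and letters in capitals mark the motif.

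Socs1, chr16:10725241-10725341, plus strand: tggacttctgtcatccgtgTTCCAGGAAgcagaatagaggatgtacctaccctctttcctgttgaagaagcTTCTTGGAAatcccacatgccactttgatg
Socs3, chr11:117989973-117990073, plus strand: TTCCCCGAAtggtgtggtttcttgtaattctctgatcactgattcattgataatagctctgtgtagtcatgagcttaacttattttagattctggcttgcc
Pim1, chr17:29443952-29444052, plus strand: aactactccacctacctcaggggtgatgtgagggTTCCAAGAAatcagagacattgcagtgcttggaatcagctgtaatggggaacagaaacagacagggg
Id2, chr12:25189245-25189345, plus strand: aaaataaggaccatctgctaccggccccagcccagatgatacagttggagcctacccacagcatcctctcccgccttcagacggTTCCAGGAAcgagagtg
Adora2b, chr11:62148651-62148751, plus strand: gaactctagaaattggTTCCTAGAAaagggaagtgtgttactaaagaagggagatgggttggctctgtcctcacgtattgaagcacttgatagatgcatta
Rmi2, chr16:10844242-10844342, plus strand: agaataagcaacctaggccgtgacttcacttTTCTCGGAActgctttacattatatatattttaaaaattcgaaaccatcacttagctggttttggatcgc
Nampt, chr12:32735447-32735547, plus strand: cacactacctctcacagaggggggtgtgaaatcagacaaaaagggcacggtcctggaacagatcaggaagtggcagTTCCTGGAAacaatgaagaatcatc
Cish, chr9:107307980-107308080, plus strand: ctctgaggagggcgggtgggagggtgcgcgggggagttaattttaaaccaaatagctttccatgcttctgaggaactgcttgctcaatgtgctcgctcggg
Nfkb1, chr3:135721123-135721223, plus strand: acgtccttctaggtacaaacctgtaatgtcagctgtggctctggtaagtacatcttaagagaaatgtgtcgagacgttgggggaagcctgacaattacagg
Snx5, chr2:144300929-144301029, plus strand: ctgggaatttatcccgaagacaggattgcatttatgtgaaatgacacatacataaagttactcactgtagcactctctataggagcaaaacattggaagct

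The Socs1 site held 2 copies of the motif, while the sites of Socs3, Pim1, Id2, Adora2b, Rmi2 and Nampt held 1 copy each. The Cish, Nfkb1 and Snx5 windows held none, although the Snx5 site had the highest fold enrichment of all 2700 sites (83.3). Across the acetylated distal sites, 1070 of 2700 summits (39.6%, 37.8 to 41.5%) had the motif within 50 bp, beside 37.9% of all WT STAT5 summits. Windows of the same length 1 kb to either side held it in 3.19% of cases. A single copy was found at 1002 summits, 2 copies at 61 and 3 or more at 7. The motif was less frequent than at distal STAT5 sites without H3K27ac (difference -3.52 percentage points, -6.13 to -0.909) and more frequent than at p65-bound STAT5 sites (16.3 points, 13.5 to 19.1). Over the whole peak, 64.3% of the acetylated distal sites held a copy, against 14.6% of stretches of the same length 3 kb away.

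Short motifs of other factors were also searched in the same windows and on both strands, as a description of the sequence. GAGGAAG, a core bound by PU.1 and other ETS factors, lay at 9.22% of the acetylated distal summits and in 3.63% of windows 1 kb away. TGANTCA, the AP-1 site, lay at 9.04% of the summits and in 2.89% of the windows. TGTGGTT of the RUNX family was found at 5.63% against 2.57%, and the IRF motif, a pair of GAAA repeats with 2 bases between them, at 2.85% against 1.37%. TTGCNNAA of the C/EBP family was as frequent at the summits (5.11%) as 1 kb away (5.04%), whereas at p65-bound STAT5 sites it lay at 10.1% of summits. Over all WT STAT5 summits the PU.1, AP-1, RUNX and IRF motifs lay at 9.33%, 9.10%, 6.16% and 2.55%, and the C/EBP motif at 6.49%. The shares of the first 4 were thus close to those of STAT5 summits in general and not particular to the acetylated distal sites. Some of these motifs can overlap one another or the STAT5 motif.

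**Figure D1:**
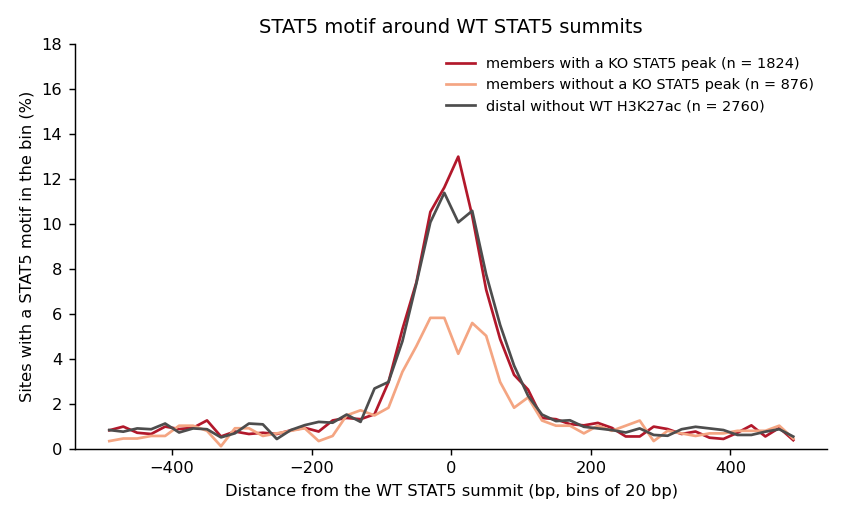
Share of sites with the STAT5 motif (y axis, percent) in bins of 20 bp by distance from the WT STAT5 summit (x axis, bp), for acetylated distal sites with (red) and without (light) a KO STAT5 peak and for distal sites without H3K27ac (dark). The key calls acetylated distal sites members. All 3 lines rise within 100 bp of the summit, and the bin from 0 to 20 bp held a motif at 13.0%, 4.22% and 10.1% of sites.

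The labelled cell type was checked on promoters. All 14 dendritic and myeloid marker genes had an H3K4me3 peak at the promoter in WT and in KO BMDCs, beside 1 of 6 neutrophil, 1 of 5 T cell, 1 of 5 B cell and 2 of 4 erythroid markers. The deletion itself was visible in the CTCF lists, with 60537 peaks in WT and 20151 in KO BMDCs. Lists of the other antibodies held 63638 and 29965 SMC1 peaks, 8185 and 6850 STAT5 peaks and 83461 and 81404 H3K27ac peaks in WT and KO BMDCs. Read numbers are not in the lists. The fragment coverage of background DNA, recovered from the peaks, was 1.33 in the WT and 1.70 in the KO STAT5 library, and 1.17 and 0.748 in the WT and KO H3K27ac libraries.

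The acetylated distal sites fell in all 10 deciles of WT STAT5 strength. The values that the selection used are given without a test. Their fold enrichment, the fragments at the summit over the local background with 1 added to each, ran from 3.42 to 83.3 with a median of 8.16, beside a median of 6.87 at distal sites without H3K27ac. A median of 19 fragments covered the summit. The H3K27ac peak held the STAT5 summit itself at 1918 sites (71.0%), and the overlap was 10 bp or less at 42. Near the limits of the rule, the closest site inside lay 2502 bp from a gene start and the closest peak left out lay 2486 bp away, the smallest H3K27ac overlap was 1 bp and the nearest unacetylated peak had its H3K27ac neighbour 1 bp away. Of the distal sites without H3K27ac, 661 lay within 1 kb of an H3K27ac peak, and 122 acetylated distal sites lay within 1 kb of a WTLPS p65 peak. The smallest gap between an acetylated distal site and a WTLPS p65 peak was 1 bp.

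In the genome, 1453 summits (53.8%) fell in introns, 1131 (41.9%) outside genes and 116 (4.30%) in exons. The nearest start of a protein-coding gene lay at a median of 29.6 kb, against 39.6 kb for distal sites without H3K27ac. Within 100 kb lay 2255 sites, nearest to 1602 genes, of which 1181 had a single site. An H3K4me3 promoter peak was present at 80.7% of these 1602 genes in WT BMDCs and 80.6% in KO BMDCs, beside 54.8% and 55.4% of all other protein-coding genes. H3K4me3 was listed in WT alone at 19 of the genes and in KO alone at 17.

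Nearly all acetylated distal sites carried the enhancer mark H3K4me1 and few carried H3K27me3. H3K4me1 covered 2608 sites in WT BMDCs (96.6%, 95.8 to 97.2%), beside 90.4% of all WT STAT5 peaks, and the share was 8.80 points higher (7.41 to 10.2) than at distal sites without H3K27ac. H3K27me3, the mark of Polycomb silencing, touched 8 sites (0.296%), beside 2.41% of all WT STAT5 peaks. H3K4me3, which is typical of promoters, overlapped 522 sites (19.3%, 17.9 to 20.9%), beside 20.8% of all WT STAT5 peaks and 52.2% of those at promoters. H3K4me1 was found at 97.2% of the sites in WTLPS, 95.3% in KO and 86.0% in KOLPS, beside 91%, 89.7% and 76.9% of all WT STAT5 peaks. The KO share was lower than that of WT, with 77 sites losing and 41 gaining a peak (interval of the difference -2.15 to -0.546 points), and the KOLPS share differed from that of KO by -9.30 points (-10.5 to -8.10), beside -12.7 points over all WT STAT5 peaks. The KOLPS H3K4me1 list was the smallest for this mark, with 79120 peaks against 93525 in KO. Coverage was not recovered for these broad peaks, and the part of depth in the difference was not tested.

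Cohesin was found at most of these sites and CTCF at few. SMC1 peaks overlapped 1834 of 2700 sites in WT BMDCs (67.9%, 66.1 to 69.7%), beside 58.4% of all WT STAT5 peaks. This was 35.4 points (32.8 to 37.8) above distal sites without H3K27ac and 14.0 points (10.7 to 17.3) above promoter sites. At p65-bound sites SMC1 was more frequent (92.96%), a difference of -25.03 points (-27.2 to -22.8). CTCF overlapped 227 sites (8.41%, 7.42 to 9.51%), beside 9.55% of all WT STAT5 peaks, and its share could not be told apart from that at distal sites without H3K27ac (difference -0.904 points, -2.41 to 0.607). A peak that had to cover the STAT5 summit or 50% of the STAT5 peak gave a CTCF share of 5.19% or 5.04%. Both proteins were listed together at 206 sites, so that 1628 of the 1834 sites with SMC1 had no WT CTCF peak.

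In CTCF-deficient BMDCs cohesin was listed at fewer of the sites. SMC1 overlapped 58.1% in KO, a difference of -9.85 points (-11.4 to -8.28), with 379 sites losing and 113 gaining a peak. Over all WT STAT5 peaks the share was 50.5%, a difference of -7.92 points (-8.75 to -7.08). Of the sites with WT SMC1, 79.3% had a KO SMC1 peak, beside 61.0% at distal sites without H3K27ac and 94.5% at p65-bound sites, differences of 18.4 points (14.7 to 22.1) and -15.2 points (-17.4 to -12.97). Promoter sites, at 77.0%, were not called different (2.37 points, -1.21 to 6.15), and over all WT STAT5 peaks with SMC1 the share was 79.9%. Where WT CTCF was also present, 71.8% of the SMC1 peaks had a KO counterpart, a difference of -8.44 points (-15.2 to -2.40) from sites with SMC1 alone. Neither this difference nor those between classes of sites were computed at equal WT SMC1 strength. At the 1455 sites with SMC1 in both lists, fragments over coverage had a median log2 ratio of KO over WT of -0.274, beside -0.254 over all WT STAT5 peaks. CTCF itself was listed at 61 sites in KO (2.26%), a difference of -6.15 points (-7.14 to -5.25), beside 3.47% of all WT STAT5 peaks, and 56 of the 227 sites with WT CTCF had a KO CTCF peak (24.7%), beside 243 of 782 (31.1%) over all WT STAT5 peaks.

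After LPS, SMC1 covered 64.2% of the sites in WTLPS, a difference of -3.70 points (-5.20 to -2.21) from WT, beside 57.7% of all WT STAT5 peaks, where the difference was -0.709 points (-1.48 to 0.0601). The value over all peaks includes the WTLPS p65-bound peaks that the selection removed, where SMC1 covered 92.96% in WT and 98.2% in WTLPS. The contrast between these differences is thus in part built in by selection. At promoter sites SMC1 covered 53.9% in WT and 52.2% in WTLPS, and at distal sites without H3K27ac 32.6% and 32.0%. With narrow peaks of −log10 q of 5 or more, the difference at acetylated distal sites was -1.44 points (-3.09 to 0.210). Both this comparison and that of KO with WT use the same WT list. In KOLPS the share was 41.96%, a difference of -22.3 points (-24.03 to -20.5) from WTLPS, beside 40.2% of all WT STAT5 peaks. The KOLPS list held 17241 SMC1 peaks and had the lowest coverage of the 4 SMC1 libraries (4.49, against 5.34 to 5.76), and the part of this in the difference was not tested. CTCF was at 6.44% of the sites in WTLPS and 1.44% in KOLPS, beside 8.16% and 2.47% of all WT STAT5 peaks.

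**Figure D2:**
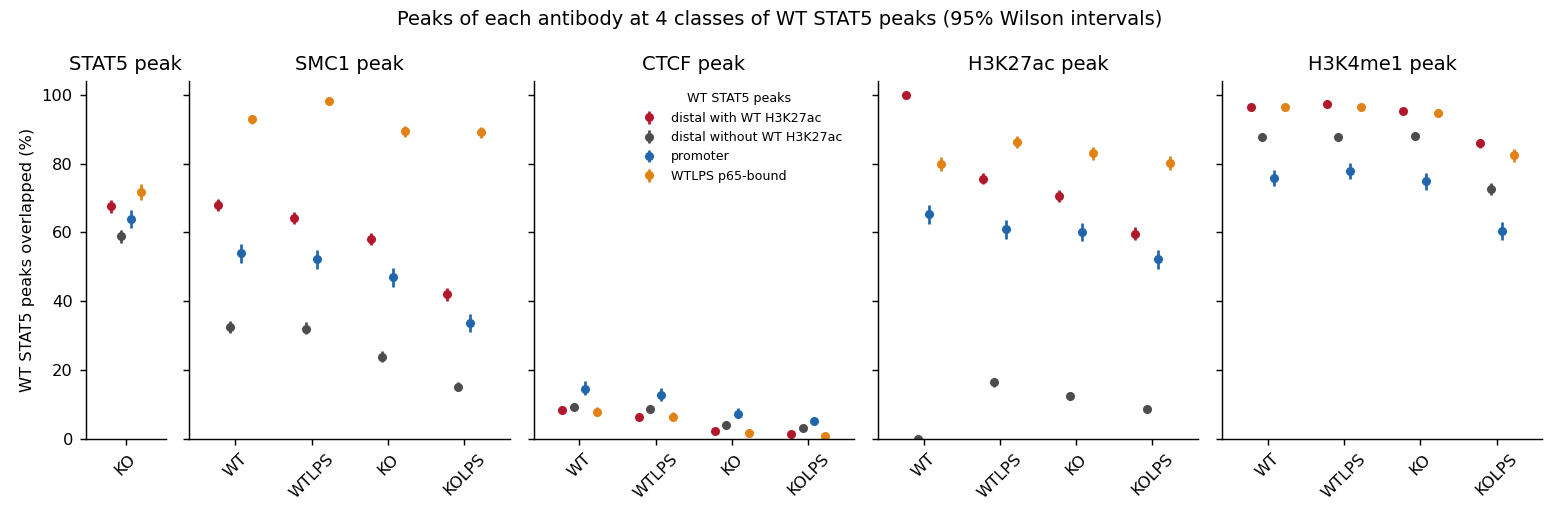
Share of WT STAT5 peaks overlapped by at least 1 bp (y axis, percent, with 95% Wilson intervals) by a peak of each antibody (panels) in each condition (x axis), for acetylated distal sites (red), distal sites without WT H3K27ac (dark), promoter sites (blue) and WTLPS p65-bound sites (orange). SMC1 covered 67.9% of the acetylated distal sites in WT and 41.96% in KOLPS. WT H3K27ac is 100% or 0% at distal sites by selection.

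STAT5 itself was found again in KO BMDCs at 1824 of 2700 acetylated distal sites (67.6%, 65.8 to 69.3%), beside 64.8% of all WT STAT5 peaks. The share was 8.75 points (6.20 to 11.3) above that of distal sites without H3K27ac (58.8%), 3.69 points (0.521 to 6.91) above promoter sites (63.9%) and lay below that of p65-bound sites (71.7%; difference -4.14 points, -7.01 to -1.22). The first 2 differences were not called at equal strength. Standardised over deciles of WT STAT5 strength, they came to 0.234 points (-1.91 to 2.38) and -0.909 points (-3.54 to 1.72), while the difference from p65-bound sites stayed called at -3.29 points (-5.63 to -0.949). That last difference was not called where the KO peak had to cover the WT summit (-2.74 points, -5.68 to 0.252).

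Strength in WT went with the presence of a KO peak at each step. In the weakest decile of all WT STAT5 peaks, 44 of 227 acetylated distal sites (19.4%, 14.8 to 25.02%) had a KO peak, in the fifth decile 152 of 272 (55.9%, 49.9 to 61.7%) and in the strongest 346 of 347 (99.7%, 98.4 to 99.9%). Distal sites without H3K27ac gave 19.8%, 60.9% and 99.3% in the same deciles. The selection started from WT peaks, so a share below 100% is built into it. Sites picked in the mirrored way, KO STAT5 peaks that were distal, had KO H3K27ac and had no WTLPS p65 peak, numbered 1797, and 1564 of them (87.0%, 85.4 to 88.5%) had a WT STAT5 peak, beside 77.2% of all KO STAT5 peaks.

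**Figure D3:**
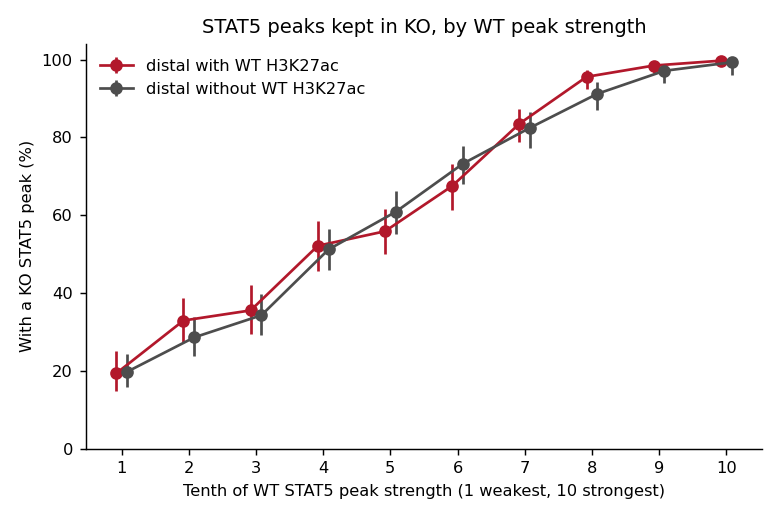
Share of sites with a KO STAT5 peak (y axis, percent, with 95% Wilson intervals) by decile of WT STAT5 strength (x axis, from the weakest to the strongest, by −log10 q of all WT STAT5 peaks), for acetylated distal sites (red) and distal sites without H3K27ac (dark). Both lines rise from about 20% (19.4% and 19.8%) to 99.7% and 99.3% and their intervals overlap in each decile.

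At most sites with a peak in both lists the KO peak was lower once scaled to coverage. Fragments at the summit divided by the coverage of the library gave a median log2 ratio of KO over WT of -0.475 at 1819 acetylated distal sites, with quartiles of -0.722 and -0.208, and 87.1% were below 0. The median was -0.360 at distal sites without H3K27ac and -0.424 over all WT STAT5 peaks. It lay between -0.552 and -0.582 in the 4 strongest deciles and at 0.171 in the weakest, where only sites high enough in KO to be listed enter. Coverage was higher in the KO library, so that equal fragment numbers give -0.36, as at a Nabp1 site with 48 fragments in WT and in KO. The ratios rest on this scaling. They use the list that chose the sites and are given without a test.

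The motif went with the presence of a KO peak. Of the acetylated distal sites with TTCNNNGAA near the summit, 80.1% had a KO STAT5 peak, 20.8 points (17.3 to 24.1) above the 59.3% of sites without it. Sites with the motif were also stronger: it lay at 18.9% of the sites in the weakest decile and 63.4% in the strongest. At equal WT strength the difference was 5.57 points (2.66 to 8.49). With SMC1 the order was the other way. Sites with WT SMC1 had a KO STAT5 peak in 66.9% and those without in 68.9%, a difference that was not called (-2.03 points, -5.74 to 1.77), but at equal strength it was called, at -5.89 points (-8.97 to -2.80). For WT CTCF the difference was 4.64 points (-1.80 to 10.4) and was not called.

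H3K27ac in the other conditions was examined at the same sites. All had an H3K27ac peak in WT by selection, so each share below describes how many were listed again and carries no direction. KO had H3K27ac at 1904 sites (70.5%, 68.8 to 72.2%), WTLPS at 2042 (75.6%, 74.0 to 77.2%) and KOLPS at 1609 (59.6%, 57.7 to 61.4%), beside 51.6%, 55.3% and 45% of all WT STAT5 peaks. Only 57.4% of all WT STAT5 peaks had WT H3K27ac, so their shares are lower in part by selection. Of the 4695 WT STAT5 peaks with WT H3K27ac, 3683 had the mark in KO, 3857 in WTLPS and 3274 in KOLPS. The shares at acetylated distal sites moved with the overlap required. Where a single peak had to cover 50% of the STAT5 peak they were 47.0%, 55.9% and 30.4%. The KO library had the lower coverage. Sites weighted by the chance that their WT peak would be called at that coverage gave 72.9% for KO. Over all WT STAT5 peaks with WT H3K27ac this weighting gave 80.4%. At the 1904 sites with a peak in both lists, H3K27ac fragments over coverage had a median log2 ratio of KO over WT of 0.286, beside 0.359 over all WT STAT5 peaks, and 32.0% of the 1904 were lower in KO. With the lower coverage in KO, equal fragment numbers give a ratio above 0. This ratio too uses the list that chose the sites and is given without a test.

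Other STAT5 sites with WT H3K27ac had the mark again more often. In KO this was true of 82.7% of 814 such promoter sites and 93.6% of 1181 such p65-bound sites, so that the acetylated distal sites differed from them by -12.2 points (-15.2 to -8.93) and -23.1 points (-25.3 to -20.8). In WTLPS the difference from promoter sites was -9.14 points (-11.97 to -6.07). That from p65-bound sites was -19.6 points (-21.6 to -17.54), but the selection split these classes by WTLPS p65, so no conclusion is drawn from it. None of these class differences was computed at equal WT H3K27ac strength, with which the KO share at acetylated distal sites rose, as given below. Within the acetylated distal sites, KOLPS lay below KO by a difference of -10.9 points (-12.8 to -9.02), beside -6.60 points over all WT STAT5 peaks, with 507 sites losing and 212 gaining H3K27ac. Of those with KO H3K27ac, 73.4% had a KOLPS peak, beside 76.0% of all WT STAT5 peaks with KO H3K27ac. Counted by H3K27ac peak, 2579 distal WT H3K27ac peaks held an acetylated distal STAT5 site, and 74.6% of them had a KO H3K27ac peak, beside 37.9% of 57849 distal WT H3K27ac peaks with no STAT5 peak. The former were wider and higher, with a median of 986 bp and a fold of 6.44. The 58678 distal H3K27ac peaks without such a site had medians of 330 bp and 4.602.

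Over the 3 conditions together, 1264 sites (46.8%) had H3K27ac in each and 281 (10.4%) in none. H3K27ac was listed in WTLPS alone at 303 sites, in KO alone at 206 and in KOLPS alone at 38. The 1264 sites with the mark throughout had a median STAT5 fold of 9.45 in WT and WT SMC1 at 78.2%. The 281 sites with none had a fold of 7.30 and SMC1 at 44.8%.

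SMC1 in WT went with the presence of H3K27ac in KO. Of the 1834 sites with SMC1, 78.8% had a KO H3K27ac peak, against 53.0% of the 866 sites without, a difference of 25.8 points (22.0 to 29.6). Sites with SMC1 had stronger H3K27ac, and at equal WT H3K27ac strength the difference was 15.0 points (11.4 to 18.7). In the second decile of H3K27ac strength, 79 of 144 sites with SMC1 (54.9%) and 38 of 126 without (30.2%) had KO H3K27ac. In the strongest decile 221 of 224 and 42 of 46 had it. The eighth decile alone had the other order (87.8% with and 91.7% without SMC1). The same split in WTLPS gave 10.2 points (6.63 to 13.8), which was not called at equal H3K27ac strength (-0.162 points, -3.61 to 3.29), and in KOLPS 18.4 points (14.4 to 22.3), or 8.03 points (4.11 to 11.95) at equal strength. Whether these 3 differences differ from one another was not tested.

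**Figure D4:**
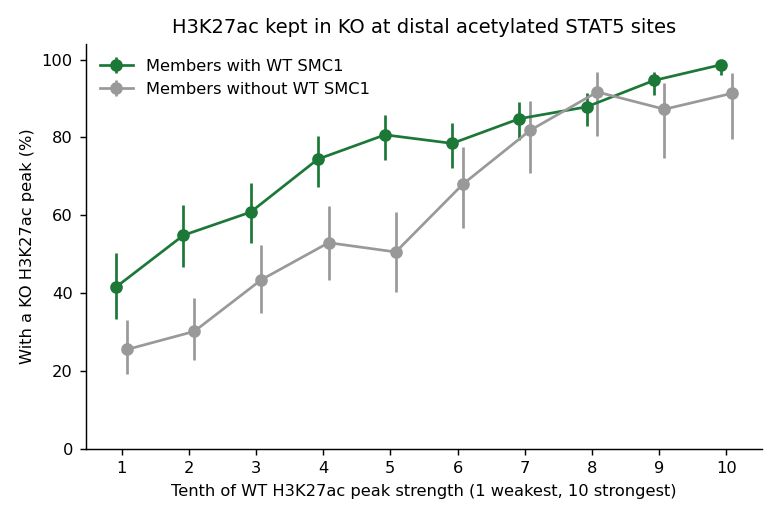
Share of acetylated distal sites with a KO H3K27ac peak (y axis, percent, with 95% Wilson intervals) by decile of their WT H3K27ac strength (x axis, from the weakest to the strongest), for sites with (green) and without (grey) a WT SMC1 peak (the key calls the sites members). In the second decile the shares were 54.9% and 30.2%, and in the strongest 98.7% and 91.3%.

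STAT5 and H3K27ac in KO were also compared site by site. Both were listed at 1312 sites (48.6%), H3K27ac alone at 592, STAT5 alone at 512 and neither at 284. Sites with KO H3K27ac had a KO STAT5 peak in 68.9% and those without in 64.3%, a difference of 4.59 points (0.707 to 8.54) that was not called at equal STAT5 strength (-1.28 points, -4.53 to 1.98). Sites with the STAT5 motif had KO H3K27ac in 68.4% and those without in 71.9%, which was not called (-3.49 points, -7.05 to 0.0240) but was called at equal STAT5 strength (-7.04 points, -10.7 to -3.39).

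Among the 17 genes listed as STAT5 targets and feedback inhibitors, 9 were nearest to 16 acetylated distal sites within 100 kb, and 14 of these sites had a KO STAT5 peak. H3K27ac was listed at 13 of the 16 in KO, 14 in WTLPS and 14 in KOLPS, and SMC1 at 9 in WT and 6 in KO. Of all 21938 protein-coding genes, 1602 (7.30%) were nearest to a site within 100 kb, and 67.2% of these 2255 sites had a KO STAT5 peak. Of the 2255, H3K27ac was listed at 1630 in KO, 1708 in WTLPS and 1361 in KOLPS, and SMC1 at 1537 in WT and 1324 in KO. The 16 sites were stronger, with a median STAT5 fold of 12.03 in WT beside 8.16 at the 2255 sites. Strength went with a KO peak, and the shares were not compared at equal strength. The counts of sites by gene list and by gene below are also within 100 kb, and several of the genes have further sites beyond it. STAT5 folds given from here on are not scaled to coverage. The higher coverage of the KO library lowers its fold at equal fragment numbers, and no fold difference was tested. Cish, which encodes the feedback inhibitor CIS, had a site 11.1 kb downstream of its start, outside genes at chr9:107307597-107309167, with a STAT5 fold of 39.1 in WT and 25.9 in KO. Fragments at its summit numbered 103 in WT and 80 in KO, and no SMC1 peak was listed there in any condition. The second Cish site (chr9:107306189-107306623) had a fold of 5.84 in WT and no KO peak.

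Socs3 encodes an inhibitor of JAK signalling. Its stronger site lay 20.8 kb upstream in an intron of Pgs1 (chr11:117989729-117990469), with a STAT5 fold of 37.4 in WT and 26.6 in KO, and an H3K27ac fold of 4.14 in WT beside 10.9 in KO, 17.3 in WTLPS and 16.2 in KOLPS. CTCF was listed at this site in WT with a fold of 8.23 and was not listed in KO, while SMC1 had a fold of 14.5 in WT and 6.94 in KO. Socs1, another JAK inhibitor, had 4 sites between 14.4 and 60.2 kb downstream. The strongest lay in an intron of Clec16a (chr16:10724504-10725544), with a STAT5 fold of 25.8 in WT and 19.2 in KO, and H3K27ac was listed there in WT, WTLPS and KOLPS but not in KO.

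Pim1, a serine and threonine kinase that promotes survival, had sites 46.8 and 12.4 kb upstream (chr17:29443751-29444387 and chr17:29478156-29478608). STAT5 folds there were 36.1 and 12.46 in WT and 30.7 and 9.98 in KO. A site 10.4 kb downstream of the start of Mcl1, which encodes an anti-apoptotic BCL2 relative, had a fold of 30.1 in WT and 26.2 in KO, and SMC1 in all 4 conditions with folds between 7.28 and 7.57. Il2ra, the IL-2 receptor alpha chain, held a site in its own intron (chr2:11655037-11655654) with a fold of 20.2 in WT and 13.7 in KO. Id2, an inhibitor of basic helix-loop-helix factors needed for dendritic cell development, had a site 92.2 kb upstream with a fold of 20.6 in WT and 12.2 in KO. Osm, encoding the cytokine oncostatin M, had a weak site 8.21 kb upstream with H3K27ac in WT alone. Within 100 kb no acetylated distal site was nearest to Pim2, Bcl2l1, Bcl2, Myc, Ccnd1, Ccnd2, Ccnd3 or Bcl6. Beyond that limit a site lay 101446 bp from Bcl2, with a STAT5 fold of 40.8, and another 244760 bp from Myc, with a fold of 22.8, and both had a KO STAT5 peak.

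**Figure D5:**
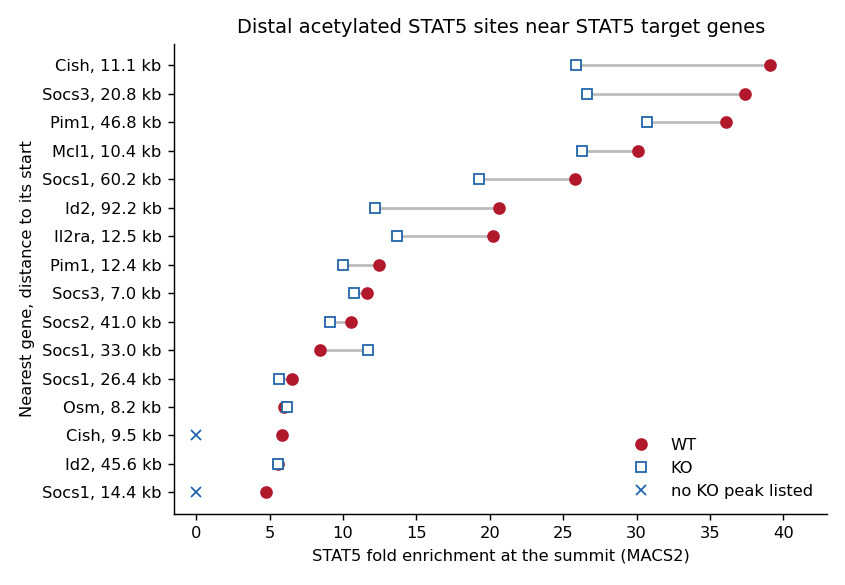
STAT5 fold enrichment (x axis) in WT (filled circles) and KO (open squares) at the 16 acetylated distal sites nearest to STAT5 target genes (y axis, gene and distance from summit to gene start). Crosses drawn at 0 mark 2 sites with no KO peak listed, where the level is unknown. The fold was lower in KO at 12 of the 14 sites with both peaks, and higher at a Socs1 and the Osm site. Coverage was higher in the KO library, which lowers the fold at equal fragment numbers. The Socs2 site had 24 fragments in WT and in KO, with folds of 10.57 and 9.09. Among all acetylated distal sites with both peaks, 87.1% were lower in KO by fragments over coverage. By fragments over coverage the Osm site was lower in KO (log2 ratio -0.0602), although it had 13 fragments in WT and 16 in KO before scaling.

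Of the 21 genes of the GM-CSF receptor and the JAK-STAT pathway, 7 had a site each within 100 kb, beside 7.30% of all protein-coding genes. A KO STAT5 peak was listed at 4 of these 7, beside 67.2% of the 2255 sites. The strongest lay 23.5 kb upstream of Jak2, the kinase of the GM-CSF receptor, outside genes at chr19:29228049-29228623, with a STAT5 fold of 31.4 in WT and 22.9 in KO and SMC1 in all 4 conditions. Sites near Grb2, Jak1 and Sh2b3 had no KO STAT5 peak, with WT folds of 9.88, 5.58 and 7.21. The sites near Il4ra, Ptprc and Tyk2 had WT folds of 7.73, 7.30 and 11.6 and KO folds of 4.07, 4.81 and 8.51.

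Of the 18 myeloid and dendritic cell transcription factors, 10 had 18 sites, beside 7.30% of all protein-coding genes with a site. A KO peak was listed at 12 of the 18, beside 67.2% of the 2255 sites. Batf3, required for a cross-presenting class of dendritic cells, had 4 sites, of which the strongest (chr1:191123580-191124570, 26.3 kb downstream) had a STAT5 fold of 41.7 in WT and 30.3 in KO. Bhlhe40 and Runx1 had 3 each and Pparg 2, while single sites lay near Cebpb, Egr2, Irf4, Irf8, Nfil3 and Spi1. The Spi1 site, in an intron of this gene for PU.1, had a STAT5 fold of 7.73 in WT, H3K27ac at 30.4 and no KO STAT5 peak.

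Of the 20 genes of the TLR and NF-κB pathway, 7 had 15 sites, beside 7.30% of all protein-coding genes with a site. A KO peak was listed at 10 of the 15, beside 67.2% of the 2255 sites. H3K27ac was listed at all 15 in WTLPS, beside 1708 of the 2255, and this difference was not tested. None of these sites overlaps a WTLPS p65 peak, by selection. Nfkb1, which encodes the p105 precursor of p50, had 4 sites, including one of the 10 strongest of all, 99 kb upstream (chr3:135720779-135721559). Its STAT5 fold was 62.3 in WT and 35.9 in KO, a log2 ratio of fragments over coverage of -0.945. Tlr4, the LPS receptor, had a site 5.59 kb upstream (chr4:66821634-66822827) with a fold of 49.0 in WT and 35.1 in KO. Tnfaip3, which encodes the NF-κB inhibitor A20, had 3 sites between 18.4 and 89.8 kb upstream, all with a KO peak, and 2 farther sites at 144937 and 155833 bp that had one as well.

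The 10 sites with the highest −log10 q included 2 places listed for most antibodies, near the gene Gm11168 and 200.0 kb from Rab10. They had the highest −log10 q (832.0 and 666.9) at a fold of 5.69 and 5.27, peaks were present there in 26 and 20 of the 30 lists, and they are not described further. The other 8, near Snx5, Adora2b, Rmi2, Nampt, Flrt3, Nfkb1, Ppp2r5e and Cers6, had STAT5 folds between 60.1 and 83.3 in WT and 35.9 and 68.4 in KO. The Adora2b site (chr11:62147713-62149160), 100.3 kb from this adenosine receptor gene and within an intron of Specc1, had folds of 79.9 and 62.5, and H3K27ac was listed there in WT, WTLPS and KOLPS but not in KO. The Nampt site (chr12:32735202-32736127), 84.8 kb upstream of this NAD synthesis gene, had folds of 63.1 and 53.2 and H3K27ac and SMC1 in all 4 conditions.

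Among sites with no KO STAT5 peak, the 5 strongest in WT lay near Vgll3 (2 sites), Meis1, Ybx3 and Qpct. The Vgll3 sites, 75.4 and 77.3 kb upstream of this cofactor gene of TEAD factors (chr16:65739571-65740520 and chr16:65737718-65738239), had STAT5 folds of 22.8 and 19.3, from 52 and 44 fragments. H3K27ac was listed at both in WT (7.82 and 6.90) and WTLPS (4.09 and 6.83) and at neither in KO or KOLPS. SMC1 was listed at both in WT alone, with folds of 4.06 and 3.44, and H3K4me1 in WT and not in KO. The Meis1 site (chr11:19333929-19334349), 315.2 kb from this homeobox gene, had a STAT5 fold of 15.9 and H3K27ac in WT and WTLPS alone.

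Several genes had a group of sites. Klf6, a zinc-finger factor of myeloid cells, had the most, 9 within 100 kb, with STAT5 folds between 6.01 and 23.2 in WT. KO STAT5 was listed at 7 of them, and H3K27ac at 9 in WTLPS, 8 in KO and 9 in KOLPS. Fasl, which encodes the death ligand FasL, had 6 sites between 21.1 and 92.0 kb downstream, 5 with a KO STAT5 peak. H3K27ac was listed at all 6 in WT and WTLPS but at 1 in KO and 1 in KOLPS, and the Fasl promoter had no H3K4me3 peak in WT or KO. Fabp7 had 5 sites, in an intron of Pkib, and all 5 had STAT5, H3K27ac and SMC1 in KO. Enpp6 also had 5, of which 1 had a KO STAT5 peak and 4 had KO H3K27ac. Nabp1 and St8sia4 had 6 sites each, with a KO STAT5 peak at 4 and 3. Atp2b1, Atp6v1b2, Myof and Ninj2 had 5 each, with a KO STAT5 peak at 5, 2, 4 and 4.

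Joined where neighbouring sites lay no farther apart than the gap commonly used to stitch super-enhancers, the 2700 sites formed 2254 stretches, of which 1907 held a single site and 5 held the maximum of 5 sites. One of the 5 ran from Cd274 to Pdcd1lg2, the genes of the immune checkpoint ligands PD-L1 and PD-L2 (chr19:29391117-29418276, 27.2 kb). Its 5 sites had STAT5 folds of 9.02, 23.6, 20.6, 12.03 and 13.3 in WT along the chromosome, KO STAT5 at the last 4, and H3K27ac at all 5 in KO and WTLPS. The other 4 stretches lay near Scel, Scimp and Zfp3, Fabp7, and Copb1 and Rras2, with a KO STAT5 peak at 3, 3, 5 and 2 of their 5 sites.

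p65 in the conditions that the selection did not use was listed at 6 of the 2700 sites in WT (0.222%), 1 in KO (0.0370%) and 18 in KOLPS (0.667%, 0.422 to 1.05%), beside 3.65%, 2.47% and 7.17% of all WT STAT5 peaks. Those shares include the WTLPS p65-bound peaks that the selection removed, which hold 288 of the 299 WT STAT5 peaks with WT p65. Promoter sites without WTLPS p65 had p65 at 0.401%, 0.0801% and 1.04%, and distal sites without H3K27ac had it at 0 of 2760 sites in WT and KO and at 0.507% in KOLPS.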

How the data were processed

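ChIP-seq was performed on BMDCs with antibodies to STAT5, p65, SMC1, CTCF, H3K27ac, H3K4me1, H3K4me3 and H3K27me3. Per the methods and the processing notes in the labels, trimmed reads were mapped by the authors on mm10 with BWA (0.7.12 in the notes). Picard (1.77) took out duplicates, and MACS2 (2.1.2) found peaks relative to input. The notes and the methods give different versions of some tools, and the study describes peak calling by biological replicate and also a merging of replicates. Which of these each deposited list holds was not worked out. The deposited 30 lists give for each peak a fold (the ratio of fragment pileup to local background, 1 added to each), −log10 p and −log10 q values, a summit and a deposited score that was not used. H3K4me1 and H3K27me3 were deposited as broad peaks, whose values are means over the region. The 4 input samples among the 34 were not analysed here.

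Peaks overlapped when they shared 1 bp. Genes were those of GENCODE vM21 (55413, of which 21938 are protein-coding), and a site was assigned to the nearest protein-coding start within 100 kb. Fragments were recovered from fold and −log10 p, and a library's coverage is its most frequent local background. Shares have Wilson intervals, differences Newcombe intervals (the paired score form for the same sites), and standardised differences are Mantel-Haenszel risk differences over 10 strength classes, all at 95%. Depth enters only as coverage, since the lists hold no read totals. Read numbers that the study's reporting summary gives for ChIP-seq libraries were not used. The named sites were the 10 with the highest STAT5 −log10 q, the 5 highest without a KO STAT5 peak, those nearest to genes of 4 lists, the 10 genes with the most sites and the stretches with the most sites. Sequences were read from GRCm38. The sites and gene lists were chosen with earlier results of these data known. Other overlaps, thresholds, promoter widths, motif windows and strength classes were tried. Python 3.11.15, numpy 2.4.6, pandas 2.3.3, scipy 1.17.1 and pysam 0.24.0 were used, and the scripts were tested on simulated data.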

Additional observations from a re-analysis of the deposited data

Results flagged for a closer look

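KOLPS p65 peaks lay outside the lists by which the sites were chosen, and 18 acetylated distal STAT5 sites had one, compared with 6 sites in the unstimulated WT list and 1 in the unstimulated KO list. The WTLPS list is 0 by selection, so that the KOLPS sites cannot be read as gained, and 1 of the 18 lay within 1 kb of a WTLPS p65 peak. Of the 18, 17 had SMC1 in WT and in KOLPS, 16 had H3K27ac in KOLPS, 12 had a KO STAT5 peak and 4 had the STAT5 motif. The other classes without WTLPS p65 had similarly few, 14 of 2760 distal sites without H3K27ac and 13 of 1248 promoter sites. No test was made of the difference between the lists, since each condition has a single list.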

How the results depend on the processing

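No paired analysis was possible because each antibody and condition has a single list and the labels give no shared replicate numbers; no replicate could be left out either. Of 126 recomputed values, 92 kept their direction and call or stayed within their interval. Where a partner peak had to cover the STAT5 summit, the difference in KO STAT5 from p65-bound sites was -2.74 points and no longer called, WT SMC1 covered 64.2%, WT CTCF 5.19%, H3K27ac 49.96% in KO, 56.6% in WTLPS and 33.5% in KOLPS, and H3K4me1 95.2% in WT and 93.4% in KO. Where a single peak had to cover 50% of the STAT5 peak, KO STAT5 was found at 63.8%, the difference from promoter sites was 3.16 points and no longer called, SMC1 covered 61.1%, CTCF 5.04%, H3K27ac 46.96%, 55.9% and 30.4%, and H3K4me1 95.3% and 93.4%. With narrow peaks of −log10 q of 5 or more, the promoter difference (0.105) was not called, the difference of SMC1 between WTLPS and WT (-1.44) had an interval that held 0, WT SMC1 covered 72.2%, and H3K27ac 68.3% in KO, 71.1% in WTLPS and 52.1% in KOLPS. With promoters of 1 kb, the promoter difference was 0.369 points and not called, and H3K4me1 covered 95.3% in WT and 94.0% in KO. Standardised over STAT5 strength, the differences from unacetylated distal and promoter sites were 0.234 and -0.909 points, the second reversed, and neither was called. The motif was present at 56.1% of summits within 100 bp and at 46.6% where a spacer of 4 was also allowed. Chosen after seeing the data, an H3K27ac peak within 1 kb of the summit gave KO STAT5 at 65.3% and SMC1 at 64.8%, weighting for coverage gave KO H3K27ac at 72.9%, and the KO STAT5 difference by WT SMC1 was -5.89 points and called at equal strength. Beyond what each setting itself defines, the cause was not tested. Coverage limits the weakest peaks, where a site missing from a list may lie just under its threshold.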
